A study of Mus musculus with 6 samples.

Results

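The 43 interferon response genes described here were listed by symbol, as genes that cells switch on when they sense interferon, and all 43 were found among the 23170 genes of a table that compares gene expression in mouse subchondral bone, taken from the mandibular condyle, after partial discectomy and after sham operation. The condyle is the rounded end of the lower jaw in the temporomandibular joint, and partial discectomy removes part of the disc of that joint. The groups were 3 libraries of sham operation and 3 of partial discectomy. All mice were labelled wild type, with an age given as P6w+PO2w, and were operated on 1 side only, and the bone came from the joint that was operated on. The descriptions add Rctrl to every sham library and LPD to every partial discectomy library without explaining the letters, so that whatever else they stand for cannot be told apart from the operation. The descriptions also number the libraries, 1, 5 and 6 in sham and 2, 4 and 6 in partial discectomy, without saying whether the shared 6 marks 1 animal. Nothing else in the labels ties a library to its own animal, and the model behind the p-values is unnamed, so that the p-values measure only the spread between these libraries, which may be partly technical.

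Interferons are secreted signals of the antiviral defence. Type I interferons act through receptors and JAK kinases on a complex that holds STAT2 and IRF9 and binds the interferon-stimulated response element (ISRE) in the promoters of its target genes, while the response to interferon gamma runs through the gamma-activated site (GAS). The products sense foreign nucleic acid, block viral replication, mark proteins with ISG15 and supply peptides to class I molecules. Blood and immune cells, which fill the marrow spaces of bone, carry many of these products at a basal level.

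The values are normalized expression values in a unit that the authors' deposited table does not name, given as a mean per group. The smallest group mean was 1, which was read here as an offset added to every library and is called the floor, so that each level above the floor and each ratio with the floor subtracted rests on that reading. A ratio above 1 means a higher mean after partial discectomy than in sham, and a gene was called at a deposited adjusted p under 0.05. Values per library were not analysed here, but the table's highest value and geometric mean over the 6 libraries, set against both group means, limit what single libraries can hold, and these limits are given below. The summed values above the floor were 527430 after partial discectomy and 481018 in sham. The bone markers of the labelled tissue, such as Col1a1 and Ibsp, were present in both groups, with a sum over 9 genes of 38127 and 30418 above the floor. In bulk tissue, more cells of a type and more RNA per cell cannot be told apart.

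Of the 43 genes, 3 rose after partial discectomy and none fell. The 3 were Rsad2, Oas3 and Ifi47, against a background of 2.28% of all genes called higher (528 of 23170) and 0.104% called lower by the authors' deposited table. That is 6.98% of the interferon response genes. A further 40 genes missed the threshold, and their ratios lay mostly a little above 1. Over all 43, the ratio was above 1 for 40 genes, the median log2 ratio was 0.41, and the ratios ran from 0.945 for Xaf1 to 5.18 for Rsad2 according to the authors' deposited table, while the median log2 ratio of all genes was 0.08 and 62.7% of them (14535 of 23170) had a ratio above 1. The 40 genes that were not called had a median log2 ratio of 0.40. Before adjustment, 17 of the 43 genes were higher (39.5%) and 0 lower at a p under 0.05 of the authors' deposited table, against 10.9% and 3.31% of all genes. At an adjusted p under 0.1 Cmpk2 joined the called genes, with 3.84% of all genes higher and 0.324% lower, and none of the 43 was lower. By 95% limits on one side of 1, 18 genes were higher (41.9%, against 11.1% of all genes) and 0 lower (against 3.59%). With p-values adjusted again over a narrower set of genes, 4 of 37 were called higher among genes at least 1 above the floor on average (3.22% of all such genes, 0.145% lower), 1 of 17 among genes at least 5 above it (2.27%, and 0.0972% lower) and 4 of 41 among protein-coding genes (3.68%, and 0.156% lower), with none of the listed genes lower. Of the 40 genes not called, 35 had an upper 95% limit of the ratio above 1.5 according to the authors' deposited table, so that for these a rise of that size is not excluded.

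**Figure D1:**
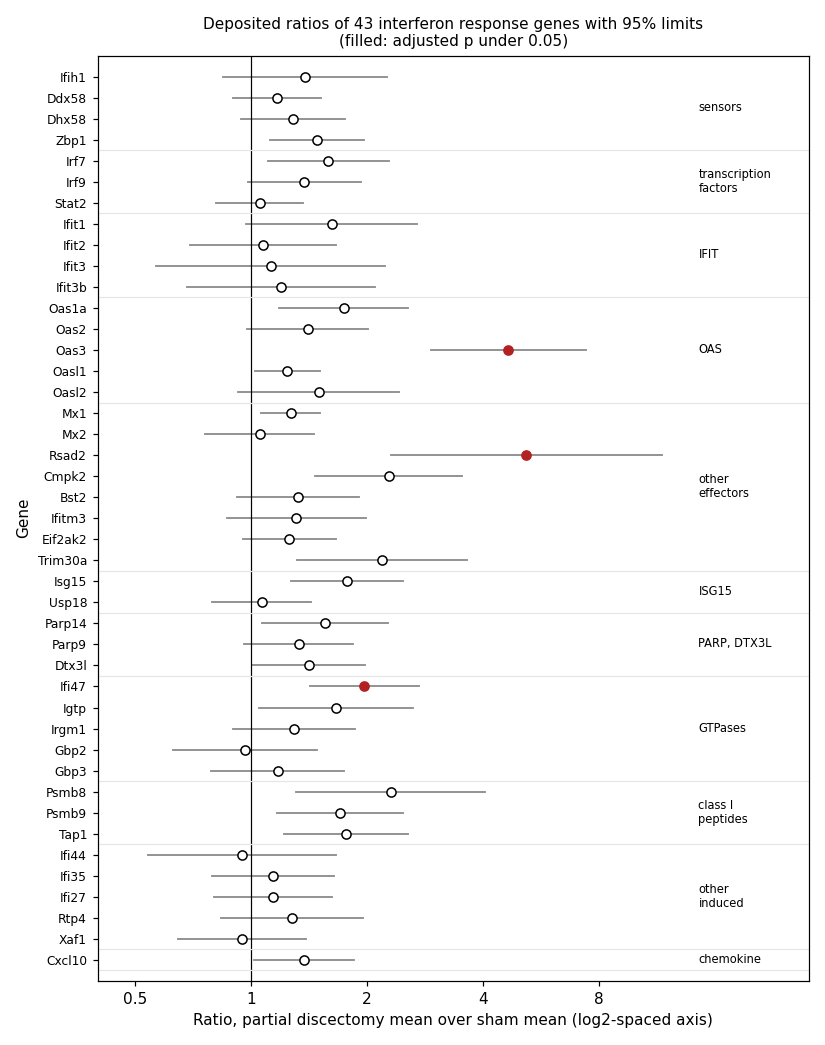
Ratio of the partial discectomy mean to the sham mean (log2-spaced horizontal axis) for each of the 43 genes, grouped by role, with the deposited 95% limits as bars; filled points passed an adjusted p of 0.05. Rsad2 (5.18), Oas3 (4.65) and Ifi47 (1.96) are filled, and 40 of 43 points lie above 1.

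Genes of like level gave the same picture. The table's genes were divided by their mean over the 6 libraries above the floor, and in each band the interferon response genes had a higher median log2 ratio than all other genes. Under a mean of 1 it was 0.40 for 6 interferon response genes and 0.02 for 7253 others. From 1 to 5 the medians were 0.44 for 20 genes and 0.08 for 5605 others, with 2 of the 20 called, against 3.68% of the others. From 5 to 15 they were 0.46 for 11 genes and 0.16 for 4475 others, with 1 of the 11 called, against 3.06% of the others. At 15 and over they were 0.36 for 6 genes and 0.12 for 5794 others, with 0 called, against 1.66% of the others. At an unadjusted deposited p under 0.05, 4 of 6, 8 of 20, 3 of 11 and 2 of 6 interferon response genes were higher, from the lowest band up. The shares of the others were 8.16%, 12.97%, 14.39% and 9.53%, in the same order. The medians and counts are descriptions, since the genes were listed with earlier results of these data known. No test of the list was made.

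**Figure D2:**
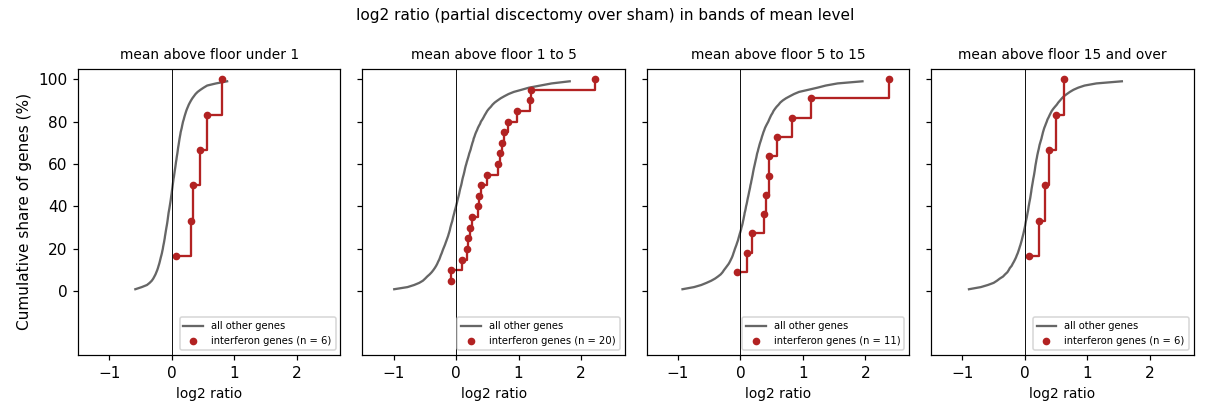
Cumulative share of genes (vertical axis, %) against the log2 ratio of partial discectomy over sham (horizontal axis) in 4 bands of mean level, for the interferon response genes (points and steps) and for all other genes (grey line). In each band the steps lie mostly to the right of the grey line, with medians of 0.40, 0.44, 0.46 and 0.36 against 0.02, 0.08, 0.16 and 0.12.

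Many of the genes share a promoter motif. The motif itself was not used to list them, but they were listed as genes switched on by interferon, so its share is not independent of the list. RefSeq windows of 300 bases (GRCm38.p6, 250 before to 50 after the start) were matched by symbol for 33 of the 43 genes. The core of the ISRE, searched on both strands as GAAA, any 2 bases and GAAA again, or as the reverse complement, was present in 19 of the 33 (57.6%), against 3.99% of the 27025 genes with a window. The GAS, searched as TTCNNNGAA, which reads alike on both strands, was present in 8 of the 33 (24.2%), against 9.55%, and in 2 windows a GAS overlapped an ISRE core. The 10 genes with no window were Dhx58, Ifi27, Mx1, Mx2, Oas2, Parp14, Parp9, Rtp4, Usp18 and Zbp1. Of the pathway lists given below, further interferon-stimulated genes held the ISRE core in 22 of 46 (47.8%). It was present in 11 of 20 interferon genes (55.0%) and 4 of 12 other class I presentation genes (33.3%). In the remaining pathway lists the share was 0.0% to 16.7%. The 250 bases before the start of the 3 called genes are shown first, with matches to the ISRE core in capitals. Oas3 and Rsad2 hold 1 match each, 75 and 120 bases before the start, and in the Ifi47 window there was no match to either motif.
Oas3 chr5:120777660-120777909 (- strand): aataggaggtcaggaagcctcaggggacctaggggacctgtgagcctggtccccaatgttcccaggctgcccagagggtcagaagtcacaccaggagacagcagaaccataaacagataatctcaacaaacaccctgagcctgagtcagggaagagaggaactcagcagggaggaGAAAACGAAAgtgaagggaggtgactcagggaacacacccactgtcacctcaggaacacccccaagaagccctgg
Rsad2 chr12:26456453-26456702 (- strand): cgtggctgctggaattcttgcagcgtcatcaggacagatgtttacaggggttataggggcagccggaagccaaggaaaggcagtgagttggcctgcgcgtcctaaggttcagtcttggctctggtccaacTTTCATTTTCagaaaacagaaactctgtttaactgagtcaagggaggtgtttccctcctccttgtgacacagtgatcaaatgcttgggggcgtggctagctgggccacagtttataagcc
Ifi47 chr11:49076337-49076586 (+ strand): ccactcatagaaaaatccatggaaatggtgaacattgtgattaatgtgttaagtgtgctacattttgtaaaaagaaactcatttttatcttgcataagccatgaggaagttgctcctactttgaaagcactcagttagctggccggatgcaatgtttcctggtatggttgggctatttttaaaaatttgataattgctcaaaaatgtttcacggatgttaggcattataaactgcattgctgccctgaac
For comparison, stretches around matches are shown for 5 genes that were not called, again with the ISRE core in capitals. Isg15 has 3 overlapping matches and Oas1a has 2, Ifit1 has 2 that lie apart, and Gbp2 and Stat2 have 1 each.
Isg15 chr4:156200865-156200906 (- strand): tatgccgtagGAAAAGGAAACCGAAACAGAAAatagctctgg
Oas1a chr5:120907526-120907555 (- strand): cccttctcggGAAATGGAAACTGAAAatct
Ifit1 chr19:34640775-34640823 (+ strand): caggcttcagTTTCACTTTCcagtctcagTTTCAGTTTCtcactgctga
Gbp2 chr3:142620594-142620623 (+ strand): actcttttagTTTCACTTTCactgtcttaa
Stat2 chr10:128270266-128270295 (+ strand): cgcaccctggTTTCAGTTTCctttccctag
The listed genes with a match had a lower median log2 ratio than those without, and the calls were too few to compare. The 19 genes with an ISRE core had a median log2 ratio of 0.40 and 2 calls (10.5%) according to the authors' deposited table, and the 14 without had 0.54 and 1 call (7.14%). At an unadjusted deposited p under 0.05, 6 of the 19 and 8 of the 14 were higher, against 10.9% of all genes. The 2 largest ratios of the list, those of Rsad2 and Oas3, belong to genes with the core. Among the other genes with a window, 28 of 485 with the core were called higher (5.77%, median log2 ratio 0.16) and 367 of 12743 without it (2.88%, median 0.11). A match is a string of letters and not a measured binding site.

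The OAS family makes short RNA signals that activate RNase L when double-stranded RNA is present, and of the 5 listed genes of the family Oas3 had the largest ratio and was the one called. Oas3 (chromosome 5, 120753098 to 120777661, mm10) had a mean of 7.10 after partial discectomy and 1.53 in sham according to the authors' deposited table. The highest library was a partial discectomy library at 9.29, the lowest of that group lay between 4.03 and 6.00, and no sham library was above 2.15. The 2 groups of libraries therefore did not overlap for Oas3. Its ratio according to the authors' deposited table was 4.65 (95% limits 2.93 to 7.39, adjusted p = 0.0104), and 69 of the 23170 genes had a higher one. Ratios of low genes depend on the floor, and with 1 subtracted from both means that of Oas3 was 11.6, above the 6.65 of Rsad2. The same step took Ifi47 from 1.96 to 3.71 and Mx1 from 1.27 to 3.11, and for 8 of the 43 genes the ratio grew by over 1.5 times. Without its highest library the ratio of Oas3 was 3.93, a step that takes out no sham library and can only lower the ratio. The neighbour Oas2, whose start lies 27808 bases away on the same strand, had means of 3.13 and 2.23 and a ratio of 1.40 (0.977 to 2.01) according to the authors' deposited table. Oas1a of the same cluster stood at 1.74 (1.18 to 2.56), which missed the threshold (adjusted p = 0.162), by the authors' deposited table. The OAS-like genes Oasl1 and Oasl2 were given 1.24 and 1.499 by the authors' deposited table. The 95% limits of Oas3 do not meet those of the other 4 listed family genes, though no test of that difference was made. Oas1a has near-identical copies, so its reads may be split.

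Rsad2 encodes viperin, an enzyme that makes a chain-terminating nucleotide, and Cmpk2 encodes a mitochondrial nucleotide kinase that supplies its substrate. Rsad2 (chromosome 12, 26442746 to 26456452) had a mean of 19.9 after partial discectomy and 3.85 in sham according to the authors' deposited table. Its highest library was a partial discectomy library at 28.1 and held 47.7% of that group's total above the floor. Its lowest partial discectomy library lay between 5.35 and 15.9 and its highest sham library between 3.85 and 7.39, and in every combination that meets the table the groups did not overlap. The ratio of Rsad2 was 5.18 (2.30 to 11.6, adjusted p = 0.0382) according to the authors' deposited table, and 4.12 without the highest library. Cmpk2, whose start lies 12752 bases from that of Rsad2 in the opposite direction, had means of 6.01 and 2.64 according to the authors' deposited table. Its highest library was at 6.59, its lowest partial discectomy library lay between 4.86 and 5.73, and no sham library was above 3.87, so the groups did not overlap. The ratio of Cmpk2 was 2.28 (1.47 to 3.54), and with an adjusted p of 0.0580 it lay just outside the threshold according to the authors' deposited table. Adjusted over the 15911 genes that average at least 1 above the floor, the p of Cmpk2 was 0.0484, and over protein-coding genes it was 0.0445.

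The other antiviral effectors had smaller ratios and none was called. Trim30a, a ubiquitin ligase of the TRIM family, had means of 11.2 and 5.11 and a ratio of 2.19 (1.32 to 3.64, adjusted p = 0.105) according to the authors' deposited table, with no overlap between the groups (lowest partial discectomy library between 7.496 and 10.3, highest sham library between 6.10 and 7.97, gaps kept in every combination). Trim30a has close relatives beside it, so its reads may be split. Mx1, a dynamin-like GTPase that traps viral nucleocapsids, lay near the floor at 1.45 and 1.14, and its groups did not overlap either. Its relative Mx2 had a ratio of 1.05 (0.758 to 1.46) according to the authors' deposited table, and its groups did overlap. Eif2ak2, which encodes the kinase PKR that stops translation, had means of 18.4 and 14.7, a ratio of 1.26 (0.953 to 1.66) and groups that did not overlap. Bst2, which tethers budding virus to the cell, and Ifitm3, which blocks viral fusion, had ratios of 1.32 (0.918 to 1.90) and 1.31 (0.864 to 1.99) according to the authors' deposited table. A non-overlap and a call are different measures here, since the first ignores the size of the spread.

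Among the interferon-inducible GTPases, which attack the vacuoles of intracellular microbes, Ifi47 was the called gene. Ifi47 (chromosome 11, 49076587 to 49096974) had means of 3.05 and 1.55 according to the authors' deposited table. Its highest library, at 3.54, belonged to partial discectomy, the lowest of that group lay between 2.18 and 2.81, and no sham library was above 1.98. The groups did not overlap, and the ratio of Ifi47 was 1.96 (1.42 to 2.72) and, with 0.0452 as its adjusted p by the authors' deposited table, Ifi47 lay just inside the threshold. Without its highest library the ratio was 1.81. The related Igtp and Irgm1 on the same chromosome had ratios of 1.66 (1.05 to 2.63) and 1.29 (0.897 to 1.87) according to the authors' deposited table. Igtp overlaps another gene on the same strand, so its reads may be split. The guanylate-binding protein genes Gbp2 and Gbp3 had 0.965 (0.627 to 1.49) and 1.17 (0.789 to 1.74) according to the authors' deposited table, and near-identical copies may share their reads.

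The 3 genes of class I peptide supply were among those with the larger ratios without a call. Psmb8 and Psmb9 encode subunits of the immunoproteasome, and Tap1 part of the transporter that brings its peptides into the endoplasmic reticulum. Psmb8 had means of 7.68 and 3.34 and a ratio of 2.30 (1.31 to 4.04, adjusted p = 0.119) according to the authors' deposited table. Tap1 had means of 10.1 and 5.74 with a ratio of 1.77 (1.22 to 2.55) and an adjusted p of 0.135, and Psmb9 had 3.38 and 1.99 and a ratio of 1.70 (1.17 to 2.48, adjusted p = 0.158) according to the authors' deposited table. For Tap1 and Psmb9 the libraries of the groups did not overlap, and for Psmb8 the table leaves an overlap possible. All 3 lie side by side on chromosome 17. Psmb9 and Tap1 run in opposite directions from starts 211 bases apart and overlap there, and reads in the overlap cannot be assigned, since strand use in counting is unnamed.

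The IFIT genes, whose products bind foreign RNA ends, had most of their partial discectomy signal in 1 library for the 2 genes where it could be placed. All 4 had a ratio above 1 and none was called or reached an unadjusted p under 0.05 according to the authors' deposited table. Ifit1 had means of 3.35 and 2.07, and its highest library, at 5.34, held 61.5% of the partial discectomy total above the floor. The other 2 partial discectomy libraries of Ifit1 averaged 2.36, a ratio of 1.14 to sham, where the ratio of the authors' deposited table was 1.62 (0.973 to 2.702). For Ifit3b the highest library held 64.7%, and without it the ratio was 0.833, below 1, against 1.196 according to the authors' deposited table. Ifit2 and Ifit3 had ratios of 1.07 (0.693 to 1.67) and 1.12 (0.567 to 2.23) according to the authors' deposited table, and the group of their highest library could not be placed. Ifit3 and Ifit3b are near-identical copies. Cxcl10, a chemokine that draws T cells, was similar, with means of 1.51 and 1.10 near the floor and 67.6% of the partial discectomy total in its highest library. Mx2 likewise had 60.3% in its highest library. The ratios without the highest library leave out a partial discectomy library only, so they could only fall.

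Isg15, the ubiquitin-like modifier, and Usp18, the protease that removes it, had unlike ratios, whose difference was not tested. Isg15 had means of 2.57 and 1.45, groups that did not overlap and a ratio of 1.78 (1.27 to 2.49, adjusted p = 0.110) according to the authors' deposited table. Usp18 had means of 2.63 and 2.46 and a ratio of 1.07 (0.794 to 1.43) according to the authors' deposited table, and its groups did overlap. Of the transcription factors, Irf7, which amplifies type I interferon production, had means of 5.11 and 3.22, no overlap between groups and a ratio of 1.59 (1.11 to 2.28, adjusted p = 0.224) according to the authors' deposited table. Irf9 and Stat2, partners in the complex that binds the ISRE, had ratios of 1.37 (0.981 to 1.92) and 1.05 (0.813 to 1.37) according to the authors' deposited table.

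None of the 4 sensors of nucleic acid was called. Zbp1, which senses Z-form nucleic acid and can start cell death, had means of 2.08 and 1.41, no overlap and a ratio of 1.48 (1.12 to 1.96, adjusted p = 0.169) according to the authors' deposited table. The RNA helicases Ifih1, Ddx58 and Dhx58, which encode MDA5, RIG-I and LGP2, had ratios of 1.38, 1.17 and 1.28 according to the authors' deposited table, each with limits on both sides of 1. Parp14 and Parp9, ADP-ribosyltransferase genes, and Dtx3l, the ubiquitin ligase partner of PARP9, had 1.55 (1.06 to 2.26), 1.33 (0.959 to 1.84) and 1.41 (1.01 to 1.97) according to the authors' deposited table. Dtx3l and Parp9 likewise overlap, with starts 681 bases apart. Of the other induced genes, Ifi44 and Xaf1 had ratios of 0.946 (0.539 to 1.66) and 0.945 (0.644 to 1.38), and Ifi35, Ifi27 and Rtp4 had 1.14, 1.14 and 1.28 according to the authors' deposited table.

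Across the 43 genes, the highest of the 6 libraries was certain to be a partial discectomy library for 38, and for 5 it could not be placed. Over all genes it was certain to be in partial discectomy for 44.6% and in sham for 21.9%. The libraries of the groups were certain not to overlap for 12 genes (27.9%), all higher after partial discectomy, against 10.4% of all genes in that direction and 3.33% in the other. The 12 were Zbp1, Irf7, Oas3, Mx1, Rsad2, Cmpk2, Eif2ak2, Trim30a, Isg15, Ifi47, Psmb9 and Tap1. Among the 38 genes whose highest library was placed, the groups were certain to overlap for 6: Stat2, Ifit3b, Mx2, Usp18, Ifi35 and Ifi27. The 5 genes whose highest library could not be placed are left out of this count of overlaps. Over the 38 genes whose highest library was placed, the median log2 ratio, floor subtracted, was 0.69, and 0.44 without that library. For these genes the step takes out a partial discectomy library and no sham library, so each ratio could only fall. The table does not name the highest library, which may differ between genes.

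**Figure D3:**
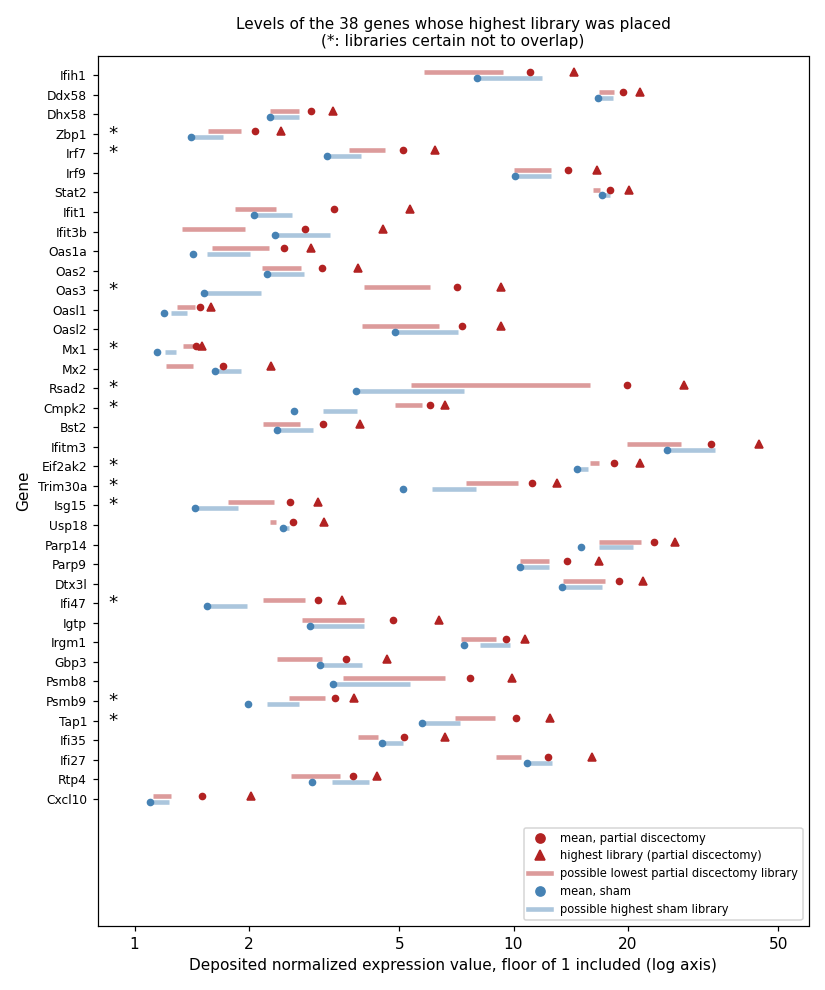
Deposited level (log axis, floor of 1 included) of the 38 genes whose highest library was placed: group means (circles), the highest library (triangle), and the ranges in which the lowest partial discectomy library and the highest sham library must lie (bars). Stars mark the 12 genes whose groups did not overlap in any combination of values that meets the table, also where the bars touch; for Oas3 the bars stand apart, with 4.03 to 6.00 and 1.53 to 2.15.

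Upstream of these genes, 2 of 21 listed interferon genes had values, Ifnk and Ifnz, and the other 19, among them Ifnb1 and Ifng, were not analysed here. Neither of the 2 was called, and both were under 0.5 above the floor in each group. For the counts that follow, the shares over all genes were 2.28% called higher, 10.9% higher at an unadjusted p under 0.05 and 62.7% with a ratio above 1. Among 11 receptors, kinases and STATs 0 were called, 2 were higher at an unadjusted p under 0.05, and all 11 ratios were above 1 (median log2 ratio 0.32). In the authors' deposited table the receptor chains Ifnar1 and Ifngr1 had ratios of 1.03 (0.718 to 1.47) and 1.25 (0.849 to 1.83), and the kinase Jak1 had 1.24 (0.891 to 1.74). Of 7 other interferon regulatory factors 0 were called and 4 were higher at an unadjusted p under 0.05 (median log2 ratio 0.58). These included Irf8, a factor of myeloid cells, at a ratio of 2.48 (1.38 to 4.47, adjusted p = 0.0872), Irf4, a factor of lymphoid cells, at 2.27 (1.05 to 4.92) and Irf1, an early target of interferon gamma, at 1.49 (1.05 to 2.13) according to the authors' deposited table. Of 12 genes of nucleic acid sensing 0 were called and 4 were higher at an unadjusted p under 0.05, with a median log2 ratio of 0.23. The adaptor Mavs of the RNA helicases had a ratio of 1.06 (0.764 to 1.48), and Unc93b1, which carries Toll-like receptors to endosomes, 1.66 (1.17 to 2.36, adjusted p = 0.141) according to the authors' deposited table.

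Further interferon-stimulated genes outside the list of 43 held more calls. Of 58 such genes 8 rose and none fell, against 2.28% and 0.104% of all genes (26 higher and 0 lower at an unadjusted p under 0.05), with 49 ratios above 1 and a list median of 0.39 (log2 ratio). Ifitm6, Slfn4 and Slfn1 had ratios of 8.04 (4.28 to 15.1), 5.99 (4.10 to 8.73) and 6.26 (3.50 to 11.2) according to the authors' deposited table. Ifitm6 is a relative of Ifitm3, and the Slfn genes encode Schlafen proteins of immune cells. The highest library was at 25.5 for Ifitm6, 15.9 for Slfn1 and 17.8 for Slfn4, against partial discectomy means of 14.4, 9.46 and 14.6. Ube2l6 and Uba7, which encode enzymes that take part in loading ISG15, rose 3.19-fold (2.03 to 5.02) and 2.66-fold (1.78 to 3.99) according to the authors' deposited table. Slfn2, the exonuclease gene Isg20 and the chemokine gene Ccl5 rose 2.89-, 3.05- and 2.88-fold according to the authors' deposited table. The 4 genes of the list with the highest level were not called, and Ifitm2, Samd9l, Lgals3bp and Trim25 had ratios of 1.05 (0.620 to 1.78), 1.68 (1.15 to 2.45), 1.203 (0.736 to 1.97) and 1.53 (1.12 to 2.10) according to the authors' deposited table. Of 11 genes that restrain interferon signalling 2 rose, Samhd1, which breaks down DNA building blocks, 2.19-fold (1.57 to 3.05, adjusted p = 0.0267) and the phosphatase gene Ptpn6 2.86-fold (1.78 to 4.59) according to the authors' deposited table. Of 14 other class I presentation genes 0 were called, 4 were higher at an unadjusted p under 0.05, and all 14 ratios were above 1 (median log2 ratio 0.56), with 1.29 (0.668 to 2.48) for B2m according to the authors' deposited table.

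Markers of several blood cell types were higher after partial discectomy. All 10 neutrophil markers were called higher, with a sum of 1356 above the floor after partial discectomy and 86.6 in sham and a median log2 ratio of 3.69. Among them, S100a9 had its highest library at 536 against a partial discectomy mean of 286, and Camp at 37.7 against a mean of 29.7. Of 6 inflammatory monocyte markers 4 were called higher (sums 166 and 58.4), of 8 T and NK cell markers 4 (sums 14.6 and 1.56), of 7 B cell markers 1 (sums 71.3 and 23.7), and of 6 erythroid markers all 6 (sums 221 and 11.2). Macrophage markers had 0 calls among 7, a median log2 ratio of -0.02 and sums of 92.6 and 86.4, or 59.5 and 65.7 without Mrc1. Mrc1 had a ratio of 1.57 (1.14 to 2.16) and Vsig4 one of 0.280 (0.141 to 0.555), both at an unadjusted p under 0.05, according to the authors' deposited table. Markers of plasmacytoid dendritic cells, the main source of type I interferon in blood, had 0 calls among 6, sums of 230 and 290, and a median log2 ratio of 0.13. Most of these sums came from Tcf4, and without it the other 5 markers summed to 22.5 and 16.1. Siglech was at 1.71 and 0.963 above the floor, with a ratio of 1.38 (0.829 to 2.30) according to the authors' deposited table. No single marker of these lists was at the floor in either group. Of 5 endothelial, 9 osteoblast and osteocyte and 5 skeletal muscle markers none was called, with median log2 ratios of 0.57, 0.63 and -0.55; the endothelial sums were 183 and 125 and the muscle sums 130 and 192. The part of these cell types in the ratios of the interferon response genes was not tested.

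**Figure D4:**
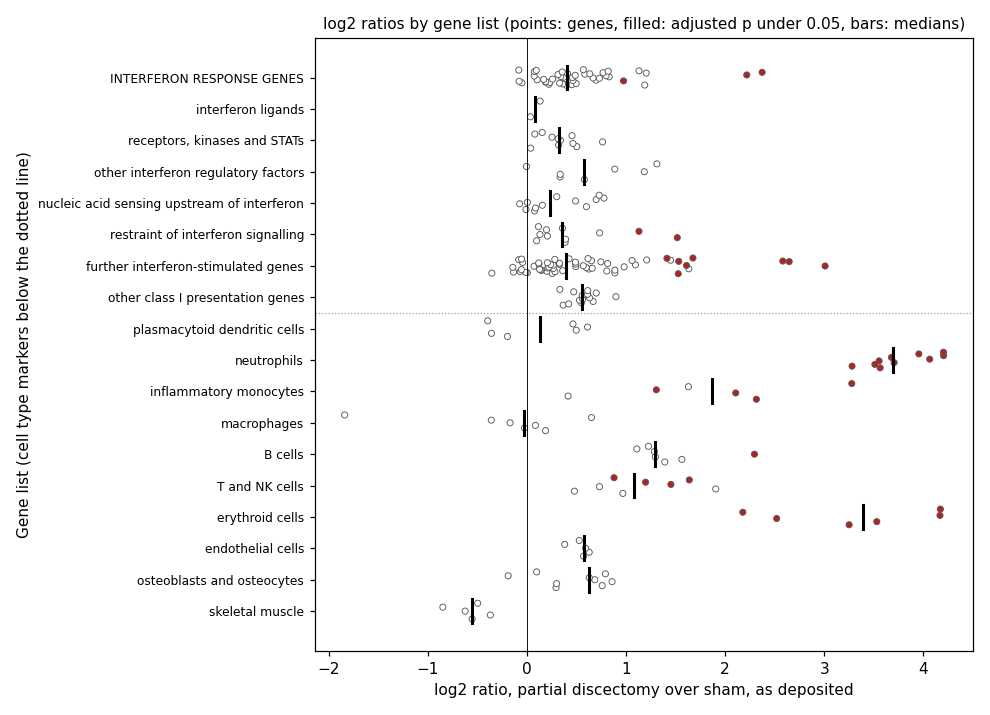
log2 ratio of partial discectomy over sham (horizontal axis) of each gene in the interferon response list, 7 further lists of the interferon pathway and 10 lists of cell type markers; points are genes, filled where the adjusted p was under 0.05, and bars are medians. The median of the interferon response genes is 0.41, against 3.69 for neutrophil and 3.39 for erythroid markers.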

How the data were processed

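RNA sequencing of 3 sham and 3 partial discectomy libraries was given as 1 table of 23170 genes. STAR 2.6.1d and mm10 come from the submitters' processing notes. No counter, filter, normalization, strand use or model is given in the sources used here. The signal columns of the authors' deposited table are mean normalized values in an unnamed unit with a floor of 1, so depth is unknown. The deposited ratio divides the mean after partial discectomy by that in sham, the deposited log2 column is its logarithm, and the deposited signed fold change and limits, entered as a score, were turned into ratios. The deposited p-value was used as given, and its adjusted p equalled a Benjamini-Hochberg adjustment over all genes (within 0.001). A second file held positions and symbols only and was not used. A count test had been planned for values per library and was not run, since the table holds group means.

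The ranges of single libraries, a measure devised after the table was seen, were computed from both group means, the highest value and the geometric mean, assuming only values of at least 1, and all 23170 genes met these conditions. On simulated data, all 1349 ranges computed for 3000 genes held the true values. Gene positions matched GENCODE M21 for 22454 genes. Promoter windows ran along the gene's strand where checked (32 of 37 windows ended in a transcript of the gene, 0 on the other strand).

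Named were all listed genes, called genes of the further lists, and otherwise up to 4 of each list by mean level; Irf8, Siglech and Vsig4 were added after their values were seen. Genes and lists were chosen with earlier results of these data known. Alternatives covered the genes adjusted over, the call rule, the floor, centring, copies and the highest library. Python 3.11.15 with pandas 2.3.3 and NumPy 2.4.6 was used.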

Additional observations from a re-analysis of the deposited data

How the results depend on the processing

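The number of genes called higher was 3, and 4 when p-values were adjusted over genes averaging at least 1 above the floor or over protein-coding genes, where Cmpk2 was added (4 also at an adjusted p under 0.1). Adjusted over genes with a mean of at least 5, which leaves 17 of the 43 genes, it was 1. The called genes Oas3 and Ifi47, with means of 3.31 and 1.30 above the floor, are not among these 17. The number called higher was 17 at an unadjusted p under 0.05 and 18 by the 95% limits. No gene was called lower under any of these. The median log2 ratio of 0.41 became 0.59 with the floor subtracted, 0.33 minus the median of all genes, 0.28 minus the log2 ratio of the summed means, 0.35 without the highest library where certain (floor subtracted; 0.69 to 0.44 over the 38 genes where it was), and 0.46 without the 6 genes that have a near-identical copy. Direction turned for few genes, none of them called. Minus the median of all genes, Mx2 and Stat2 came to -0.0072 and -0.0046 (log2). Minus the log2 ratio of the summed means, Ifit2, Mx2, Stat2 and Usp18 came to -0.030, -0.060, -0.057 and -0.039. Without the highest library, floor subtracted, Ifi27, Ifi35, Ifit3b, Mx2, Stat2 and Usp18 came to -0.062, -0.042, -0.49, -0.57, -0.013 and -0.11. That step removed a partial discectomy library and no sham library, so a ratio could only fall. With the floor subtracted, the median log2 ratios were 0.64 for other interferon regulatory factors, 0.27 for nucleic acid sensing, 0.38 for restraint of signalling, 0.63 for further interferon-stimulated genes and 0.65 for other class I genes. For interferon genes the median went from 0.08 to 0.91. That median rests on only 2 genes, Ifnk and Ifnz, at most 0.43 above the floor in either group, where the ratio depends strongly on the floor. Calls among the further interferon-stimulated genes went from 8 to 5 over genes with a mean of at least 5. The called genes Isg20, Slfn1 and Ccl5, with means of 4.94, 4.48 and 1.26 above the floor, are not in that set. Beyond such genes left out and the smaller number of genes tested, the causes of the changes were not tested. No paired analysis was possible because the table holds group means and no values per library, and single replicates could not be left out by name for the same reason.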
